A study of Mus musculus with 10 samples.

Results

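The 8 genes described here encode the enzymes that write and remove cytosine methylation in DNA: Dnmt1 and Uhrf1, which maintain it, Dnmt3a and Dnmt3b, which set it anew, Tet1, Tet2 and Tet3, which oxidise it, and Tdg, which cuts the oxidised base out. They were taken by symbol from the 17493 genes of the deposited RNA sequencing table, and all 8 were found. The libraries came from mouse Th17 cells, helper T cells that make IL-17, grown from splenic CD4+ T cells of C57BL/6 mice. Naive cells were activated through CD3 and CD28 with 20 ng/mL of IL-6 and 2.5 ng/mL of TGF-beta for 48 to 72 h, which both groups shared. The TMP269 group (2 libraries) received TMP269, a small-molecule inhibitor of the class IIa histone deacetylases, before harvest, and the DMSO group (2 libraries) is labelled as the control. For the dose and duration of exposure, the labels give no figure.

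Methyl groups on cytosine are copied after DNA replication, when UHRF1 binds hemimethylated CpG sites and recruits the methyltransferase DNMT1 to the daughter strand. DNMT3A and DNMT3B methylate unmodified sites, and both serve T cells during differentiation, when methylation closes cytokine genes of other helper classes. TET dioxygenases use 2-oxoglutarate and iron to turn 5-methylcytosine into 5-hydroxymethylcytosine and further oxidised forms, which either are lost over cell divisions or are excised by thymine DNA glycosylase (TDG) and replaced by base excision repair. In T cells, TET2 and TET3 are known for keeping regulatory elements such as those of Foxp3 unmethylated.

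The recovered reads came to between 20837231 and 23259102 in the TMP269 libraries and between 20007042 and 25321455 in the DMSO libraries. DMSO replicate 2 stood apart in ribosomal RNA, with 2.20% of its reads on Rn45s against 0.716% to 1.12% in the TMP269 libraries and 0.836% in DMSO replicate 1. The 7 T cell markers, Cd3e, Cd4 and Lck among them, summed to 45355 and 47756 normalised reads in the TMP269 libraries and 41595 and 46195 in the DMSO libraries. Th17 markers were present, Il17a and Il17f among them. The 8 B cell markers were all detected. Their sum was 2437 and 2479 normalised reads with TMP269 and 4294 and 4336 with DMSO, and 5 of them fell. The 7 myeloid markers in the table summed to between 305 and 358 with TMP269 and between 116 and 137 with DMSO. Most of this was Cd68, with 263 and 299 normalised reads with TMP269 and 97.2 and 83.2 with DMSO. Of the 3 tested, Cd68 alone was called, and the 2 others had changes below 0. The 4 others were too low to test. Lyz2 and Cd14 lay higher in both TMP269 libraries than in either DMSO library, and Emr1 and Fcgr1 overlapped. The rise of the sum is thus mostly, but not only, that of Cd68. Several of the 8 enzymes are made in dividing B cells too, and the part of these cells in the values below was not tested. In such bulk libraries, fewer cells of a type and less RNA per cell cannot be told apart.

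With TMP269, Uhrf1 fell modestly and the other 7 enzymes did not pass the test. Values are normalised reads, a library's read count divided by its size factor, and changes are log2 fold changes of (value + 1) for TMP269 over DMSO, with a gene called at a limma adjusted p under 0.05 over all 12535 genes tested. All 8 genes passed the filter of at least 10 normalised reads in at least 2 libraries. The number called was 1 of 8, against a background of 27.5% of all tested genes. In 6 of the 8, the groups did not overlap, 3 with TMP269 above and 3 with TMP269 below, against 66.6% of tested genes. At an unadjusted limma p under 0.05 there were 4 of the 8, Uhrf1, Dnmt3a, Tet2 and Tet3, against 40.5% of tested genes. The median change of the 8 was 0.04, and that of all tested genes was 0.00.

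**Figure D1:**
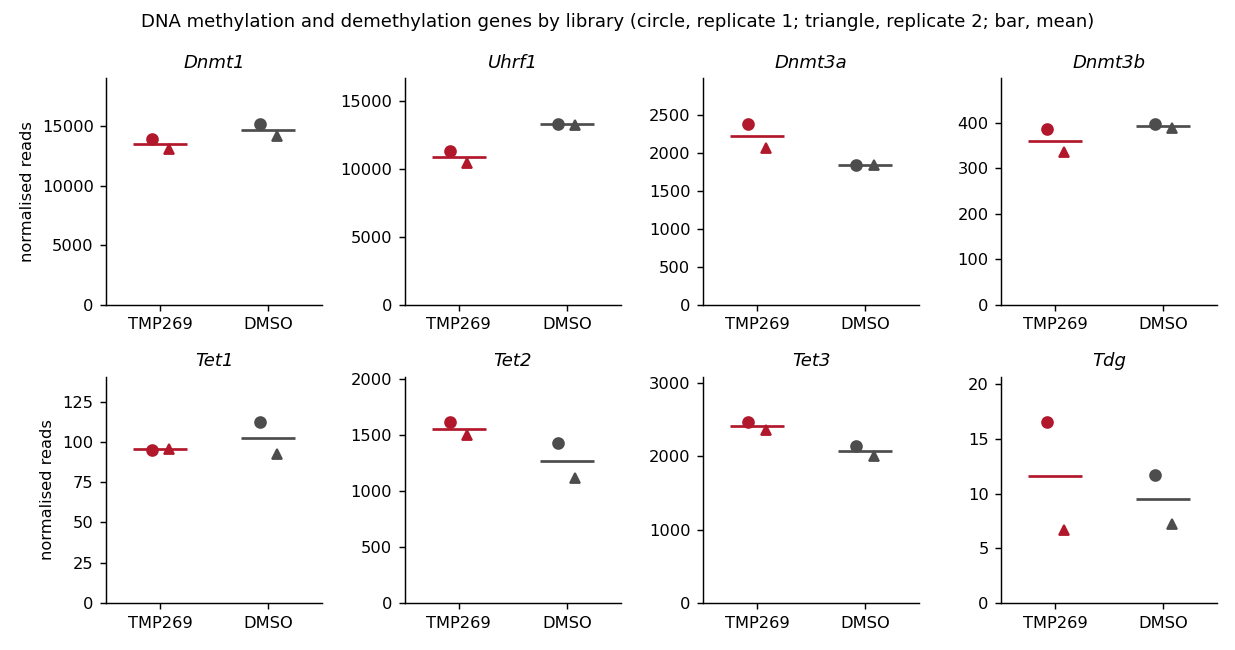
Normalised reads of each enzyme gene (y axis, from 0, with its own scale) in TMP269 and DMSO libraries. Circles are replicate 1, triangles replicate 2, and bars the means. Uhrf1 is at 11303 and 10392 with TMP269, below both DMSO libraries, while Dnmt3a, Tet2 and Tet3 lie above DMSO and Tet1 and Tdg overlap.

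Of the maintenance pair, Uhrf1 had 11303 and 10392 normalised reads in the TMP269 libraries, against 13302 and 13184 in the DMSO libraries. Both TMP269 libraries lay below both DMSO libraries, and the DMSO pair was close. The mean was 10848 ± 644 with TMP269 and 13243 ± 83.4 with DMSO (SD, n = 2 each), a 0.818-fold level (log2 fold change -0.29 ± 0.09, SE; limma adjusted p = 0.0368). The call was narrow. Leaving out TMP269 replicate 1 ended it (limma adjusted p = 0.102), as did leaving out TMP269 replicate 2 (0.295), DMSO replicate 1 (0.0723) or DMSO replicate 2 (0.0895), and so did equal library totals (log2 fold change -0.18, limma adjusted p = 0.146). Dnmt1, its partner enzyme, had 13942 and 13112 normalised reads with TMP269, against 15207 and 14150 with DMSO. The TMP269 values were below the DMSO values, yet the higher TMP269 library and the lower DMSO library differed by less than either pair did within itself. Its log2 fold change was -0.12 ± 0.09 (SE, limma adjusted p = 0.356), and the 95% interval of the fold ran from 0.801 to 1.06.

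The promoter windows of this pair are shown because, among the 8 genes, they alone held the E2F words searched for. E2F factors drive genes of DNA replication at the entry into S phase. The windows are RefSeq's on GRCm38.p6, 250 bases before to 50 after an annotated start, matched by symbol, and the 8 genes had 13 of them. The words TTTCCCGC, TTTGGCGC, TTTCGCGC and TTTGCCGC were sought on both strands. Hits on opposite strands can overlap, which none of those shown did. They occurred in 2.27% of all 32851 windows. In the sequences, read 5′ to 3′ on the gene's strand, capitals mark these words. The Uhrf1 window is chr17:56304063-56304362 (plus strand), the second of 2 for that gene, and the Dnmt1 window is chr9:20952574-20952873 (minus strand), the third of 3. Tet2, at chr3:133544341-133544640 (minus strand), stands for the genes that held no such word.
Uhrf1: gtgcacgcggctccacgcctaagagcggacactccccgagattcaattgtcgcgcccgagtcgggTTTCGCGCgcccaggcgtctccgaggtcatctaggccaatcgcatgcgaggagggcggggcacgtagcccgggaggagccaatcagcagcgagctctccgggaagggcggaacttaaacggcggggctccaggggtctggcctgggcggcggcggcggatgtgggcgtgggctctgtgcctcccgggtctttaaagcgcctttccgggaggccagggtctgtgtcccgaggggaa
Dnmt1: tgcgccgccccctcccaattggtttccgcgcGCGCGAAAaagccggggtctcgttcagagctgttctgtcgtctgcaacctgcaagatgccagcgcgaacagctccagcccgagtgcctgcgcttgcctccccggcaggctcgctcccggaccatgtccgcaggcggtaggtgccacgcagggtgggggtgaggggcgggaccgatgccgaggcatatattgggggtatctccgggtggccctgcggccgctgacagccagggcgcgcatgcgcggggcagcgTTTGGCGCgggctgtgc
Tet2: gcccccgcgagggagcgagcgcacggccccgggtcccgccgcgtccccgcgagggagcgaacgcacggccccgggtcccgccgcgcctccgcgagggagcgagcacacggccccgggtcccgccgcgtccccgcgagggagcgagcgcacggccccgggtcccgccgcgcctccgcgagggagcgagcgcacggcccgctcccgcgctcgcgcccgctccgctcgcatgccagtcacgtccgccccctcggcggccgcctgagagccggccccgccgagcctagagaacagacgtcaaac

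The Uhrf1 word began 185 bases before the start. Of the Dnmt1 words, the first, on the antisense strand, began 219 bases before the start, and the other began at base 34 after it. The Tet2 window held 57 CpG dinucleotides, and 99.85% of all windows held fewer. Those of Uhrf1 and Dnmt1 shown here held 33 each, where the median of all windows was 7. The other windows of these genes ranged down to 2 CpGs, in the first Dnmt1 window. None of the 13 windows held a match to the MEF2 consensus, the site of the factors to which class IIa deacetylases bind, and 3.19% of all windows held one. Such matches describe letters in these windows only.

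Among the de novo methyltransferases, Dnmt3a had 2387 and 2071 normalised reads with TMP269, against 1843 and 1836 with DMSO. Both TMP269 libraries were above both DMSO libraries, and the TMP269 pair was the wider one. The mean was 2229 ± 223 with TMP269 and 1839 ± 4.95 with DMSO (SD, n = 2 each). Its log2 fold change of 0.27 ± 0.09 (SE) missed the threshold narrowly (limma adjusted p = 0.0508, with a 95% interval of the fold of 1.05 to 1.39). It passed with edgeR on the recovered reads (edgeR adjusted p = 0.0434), with equal library totals (limma adjusted p = 0.0295) and without TMP269 replicate 2 (0.0279), but was far from it without TMP269 replicate 1 (log2 fold change 0.17, limma adjusted p = 0.389). The antisense gene Dnmt3aos had only 8.27 and 1.90 normalised reads with TMP269 and 2.70 and 1.21 with DMSO, but without a stated strand setting its reads and those of Dnmt3a cannot be told apart. Dnmt3b, the paralogue best known from early development, had 388 and 335 normalised reads with TMP269, against 399 and 390 with DMSO. Its groups did not overlap, but TMP269 replicate 1 was close to the DMSO pair. The log2 fold change was -0.13 ± 0.12 (SE, limma adjusted p = 0.461). Dnmt3l, a cofactor of these enzymes without activity of its own, had 0 reads in every library, which allows up to 3 reads in each.

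Of the TET dioxygenases, Tet2 had 1614 and 1497 normalised reads in the TMP269 libraries, against 1424 and 1116 in the DMSO libraries. The TMP269 values were higher, with DMSO replicate 1 close to them and DMSO replicate 2 lower. The log2 fold change was 0.30 ± 0.12 (SE, limma adjusted p = 0.0883, 95% interval of the fold 1.02 to 1.48). It was 0.48 without DMSO replicate 1, where it was called (limma adjusted p = 0.00923), and 0.13 without DMSO replicate 2 (0.463), the library rich in Rn45s. Tet3 had 2468 and 2362 normalised reads with TMP269, against 2137 and 2002 with DMSO. Here the pairs were tight and separate, and the log2 fold change was 0.22 ± 0.08 (SE, limma adjusted p = 0.0661, 95% interval of the fold 1.03 to 1.32). Tet3 passed with equal library totals (log2 fold change 0.33, limma adjusted p = 0.0329) but not with DESeq2 on the recovered reads (DESeq2 adjusted p = 0.108). With 1 library left out, its log2 fold change ranged from 0.18 (without DMSO replicate 2) to 0.27 (without DMSO replicate 1).

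Tet1, a TET enzyme prominent in embryonic stem cells, was covered by only 92 and 101 reads with TMP269 and 125 and 77 with DMSO. It had 95.1 and 95.9 normalised reads with TMP269, against 112 and 92.9 with DMSO, and both TMP269 values lay inside the DMSO range. The log2 fold change was -0.10 ± 0.19 (SE, limma adjusted p = 0.735), and it turned to 0.04 without DMSO replicate 1 and to 0.01 with equal library totals. Together the TET genes summed to 4178 and 3955 normalised reads with TMP269, against 3674 and 3211 with DMSO. Tet1 gave few of these reads, so the sum follows Tet2 and Tet3.

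Tdg, the glycosylase, had 16 and 7 reads with TMP269 and 13 and 6 with DMSO. In normalised reads these were 16.5 and 6.65 with TMP269, against 11.7 and 7.24 with DMSO, and replicate 1 was the higher in both groups. At this depth no change was detectable (log2 fold change 0.18 ± 0.54, SE, limma adjusted p = 0.831), and the 95% interval of the fold, 0.482 to 2.66, leaves a large change in either direction within it. The labels do not say how reads that match several places were counted, and the low count of Tdg is uncertain for that reason.

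Setting each gene against Dnmt1 in its own library removes the choice of size factor but makes Dnmt1 the scale. Dnmt1 itself was lower with TMP269 (log2 fold change -0.12, not called), which lifts every ratio in the TMP269 libraries by about that much. Per 100 Dnmt1 reads there were 17.1 and 15.8 Dnmt3a reads with TMP269, against 12.1 and 13.0 with DMSO. For Tet2 there were 11.6 and 11.4 reads with TMP269, against 9.37 and 7.88 with DMSO, and for Tet3 17.7 and 18.0 with TMP269, against 14.1 and 14.1 with DMSO. These 3 ratios were higher in both TMP269 libraries than in either DMSO library, by 0.39, 0.42 and 0.34 on the log2 scale. The Uhrf1 ratio was lower, at 81.1 and 79.3 with TMP269, against 87.5 and 93.2 with DMSO. Ratios of Dnmt3b and Tet1 overlapped between the groups. All ratios share the Dnmt1 reads, and an exact two-sided permutation test of 2 libraries against 2 cannot give a p below 0.333, so they are given as values only.

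**Figure D2:**
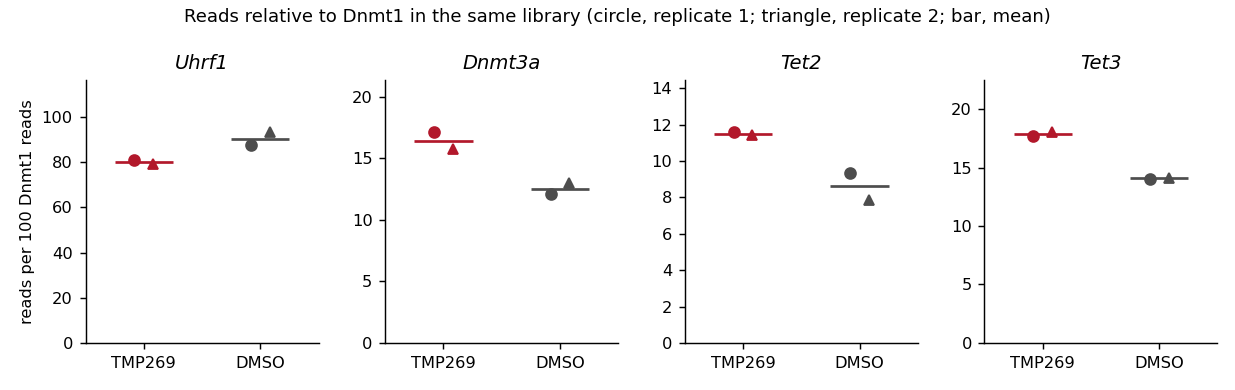
Reads of Uhrf1, Dnmt3a, Tet2 and Tet3 per 100 Dnmt1 reads of the same library (y axis, from 0) in TMP269 and DMSO libraries, with circles for replicate 1, triangles for replicate 2 and bars for the means. The Uhrf1 ratio averages 80.2 with TMP269 and 90.3 with DMSO, while the other ratios are higher with TMP269.

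**Figure D3:**
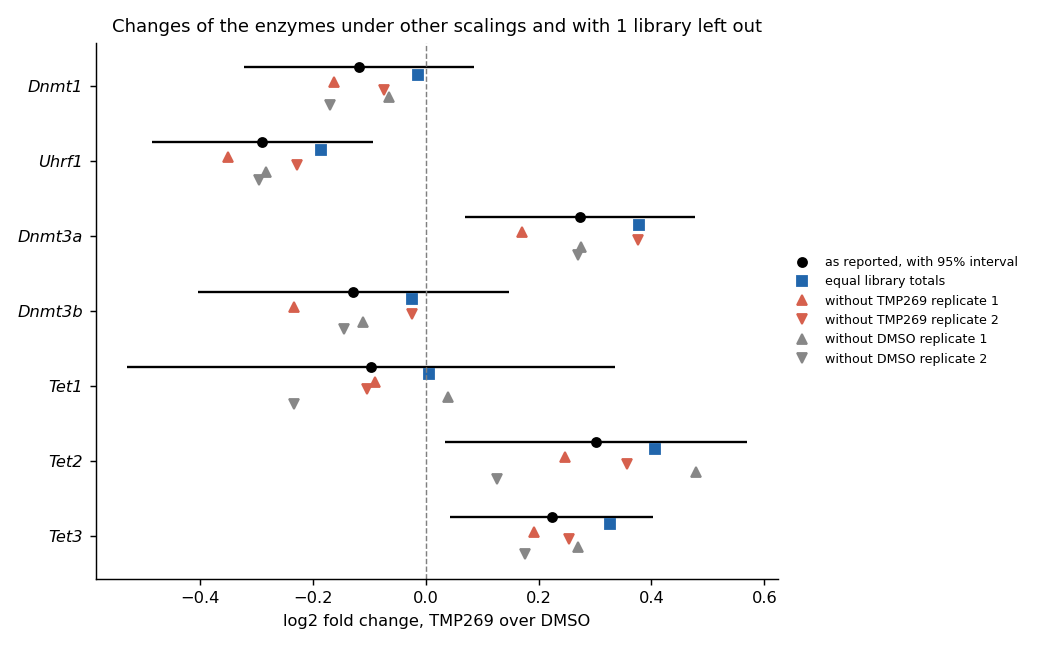
Log2 fold change of TMP269 over DMSO (x axis) for 7 enzyme genes as reported (black, with the 95% interval), with equal library totals (blue squares) and with each library left out (triangles). Uhrf1 and Dnmt1 stay below 0 and Dnmt3a, Tet2 and Tet3 above 0 in all settings drawn, while Tet1 crosses 0.

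Equal library totals moved the median change of all tested genes to 0.10, and each enzyme moved with it. Relative to that median, Uhrf1 stood at -0.29, Dnmt3a at 0.28, Tet2 at 0.31 and Tet3 at 0.23, within 0.01 of their reported changes. A new scaling shifts all genes almost alike, so this closeness follows from the arithmetic. It says nothing about which scaling is right.

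The genes whose profile over the 4 libraries lay nearest to that of Uhrf1, by Euclidean distance of centred log2 values among 11789 candidates, were Chaf1a (distance 0.011), Hnrnpa3 (0.014) and Trim28 (0.021). Chaf1a encodes the large subunit of the histone chaperone CAF-1, Hnrnpa3 an RNA-binding protein and Trim28 the corepressor KAP1. The promoter windows of these genes held none of the E2F words searched for. Other forms of the E2F site were not sought, so this does not show that they lack one. Chaf1a had 3048 and 2821 normalised reads with TMP269, against 3572 and 3551 with DMSO, the same tight DMSO pair and lower TMP269 pair as Uhrf1. Nearest to Dnmt1 were Peo1 (the mitochondrial helicase Twinkle), Khsrp (an RNA-binding protein) and Fzr1 (an activator of the anaphase-promoting complex), at 0.015 to 0.016. Nearest to Tet2 were Acap1 (0.010), Slc9a8 (0.025) and Ppip5k1 (0.026). With 4 libraries such likeness is a description only.

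Genes listed as readers of methylation or partners of the enzymes, which include methyl-CpG-binding domain genes by family, moved in both directions. Of 19 tested genes in the list of readers and partners, 4 rose, 5 fell and 10 were not called, where 12.8% of all tested genes were called higher and 14.7% lower. The list's median log2 fold change was -0.01. Cdca7 and Hells, which encode the subunits of a remodeller that opens nucleosomal DNA to maintenance methylation, both fell. Cdca7 had 1618 and 1658 normalised reads with TMP269, against 2628 and 2812 with DMSO (log2 fold change -0.73 ± 0.08, SE, limma adjusted p = 6.25e-04). Hells had 3595 and 3747 with TMP269, against 4433 and 5355 with DMSO (log2 fold change -0.41 ± 0.10, SE, limma adjusted p = 0.0165, but 0.0808 without DMSO replicate 2). Cdca7 stayed called in every alternative run, equal library totals included.

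Usp7, the deubiquitinase that stabilises UHRF1 and DNMT1, fell to 0.836-fold (limma adjusted p = 0.0371), a call lost without any 1 library (0.0817 to 0.249) and with equal library totals (0.185). Among methyl-CpG-binding domain genes, Mbd3, of the NuRD repressor complex, fell to 0.741-fold, while Mbd6 rose 1.56-fold, Mbd5 1.37-fold and Mbd1 1.22-fold. The Mbd1 call was lost without any 1 of the 4 libraries, and the Mbd5 call without TMP269 replicate 2 or DMSO replicate 1. Zbtb4, a zinc finger protein that binds methylated CpG, rose 1.48-fold, with 1537 and 1622 normalised reads with TMP269 against 1023 and 1113 with DMSO (limma adjusted p = 0.00266). Trim28, which partners zinc finger proteins that guard methylation at imprinted loci, fell to 0.823-fold, a call lost without any 1 library and with equal library totals. Called readers and partners numbered 2 or 3 higher and 2 to 4 lower with 1 library left out, and 6 higher and 3 lower with equal library totals.

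In the list of demethylation partners and base excision repair, 3 of 21 tested genes rose and 3 fell, a share near the 27.5% called over all tested genes, and the median log2 fold change was -0.04. Gadd45b and Gadd45a, stress genes linked to active demethylation, rose 1.45-fold and 1.495-fold. Gadd45b had 2927 and 2923 normalised reads with TMP269, against 1911 and 2126 with DMSO (limma adjusted p = 0.00267). Their paralogue Gadd45g was not called, with 852 normalised reads with TMP269 and 1035 with DMSO on average (log2 fold change -0.29 ± 0.12, SE, limma adjusted p = 0.109). The glycosylase gene Neil3, which is tied to the S phase, rose 1.42-fold (limma adjusted p = 0.0108). Parp1, a sensor of strand breaks, fell to 0.697-fold, with 5438 and 5254 normalised reads with TMP269 against 7656 and 7690 with DMSO (limma adjusted p = 0.00209). Nthl1, a glycosylase for oxidised pyrimidines, fell to 0.640-fold and the endonuclease gene Apex1 to 0.795-fold. The Nthl1 call was lost without any 1 library. That of Gadd45a was lost without DMSO replicate 1 or 2 or TMP269 replicate 2. That of Neil3 was lost without DMSO replicate 2, and that of Apex1 without DMSO replicate 2 or TMP269 replicate 2. Equal library totals also ended the calls of Apex1 (limma adjusted p = 0.129) and Nthl1 (0.0597). So did DESeq2 for Apex1 (DESeq2 adjusted p = 0.0747), Nthl1 (0.113) and Gadd45a (0.0939). With 1 library left out, 1 to 5 of the list were called higher and 1 or 2 lower.

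Genes that supply the cofactors fell more uniformly. S-adenosylmethionine, the methyl donor of the DNMT enzymes, comes from the methionine and folate cycles, and 2-oxoglutarate, the cosubstrate of the TET enzymes, comes from isocitrate. Of 25 tested genes 13 fell, against 14.7% of all tested genes called lower, and the median log2 fold change was -0.27. Shmt2 and Mthfd2, mitochondrial folate enzymes, fell to 0.632-fold and 0.674-fold. Mtap, which salvages methionine, fell to 0.624-fold, and Idh3a, an isocitrate dehydrogenase subunit, to 0.676-fold. Ahcy, which clears S-adenosylhomocysteine, the product that inhibits methyltransferases, fell to 0.810-fold (limma adjusted p = 0.0354), a call lost without DMSO replicate 2 (0.155), TMP269 replicate 1 (0.261) or TMP269 replicate 2 (0.0814) and with equal library totals (0.0814). Mat2a, the synthase of S-adenosylmethionine itself, was not called (6743 with TMP269 and 7453 with DMSO, limma adjusted p = 0.223). The number called lower was 8 to 12 with 1 library left out and 9 with equal library totals.

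Uhrf1 and Dnmt1 are known to follow the S phase, and the genes of replication are given beside them. Of 27 tested, 10 fell and 0 rose, against 14.7% of all tested genes called lower and 12.8% called higher. The median log2 fold change was -0.24, where Uhrf1 was at -0.29 and Dnmt1 at -0.12. The helicase subunit genes Mcm6 and Mcm7 fell to 0.754-fold and 0.748-fold, the dUTPase gene Dut to 0.678-fold and the thymidine kinase gene Tk1 to 0.715-fold. Pcna, the clamp that holds DNMT1 at the fork, was not called (16062 with TMP269 and 17936 with DMSO, limma adjusted p = 0.272). The number called lower was 4 without DMSO replicate 2, 5 without TMP269 replicate 1, 7 without TMP269 replicate 2, 14 without DMSO replicate 1 and 5 with equal library totals, where 1 rose. The part of the share of cells in S phase in the change of Uhrf1 was not tested.

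**Figure D4:**
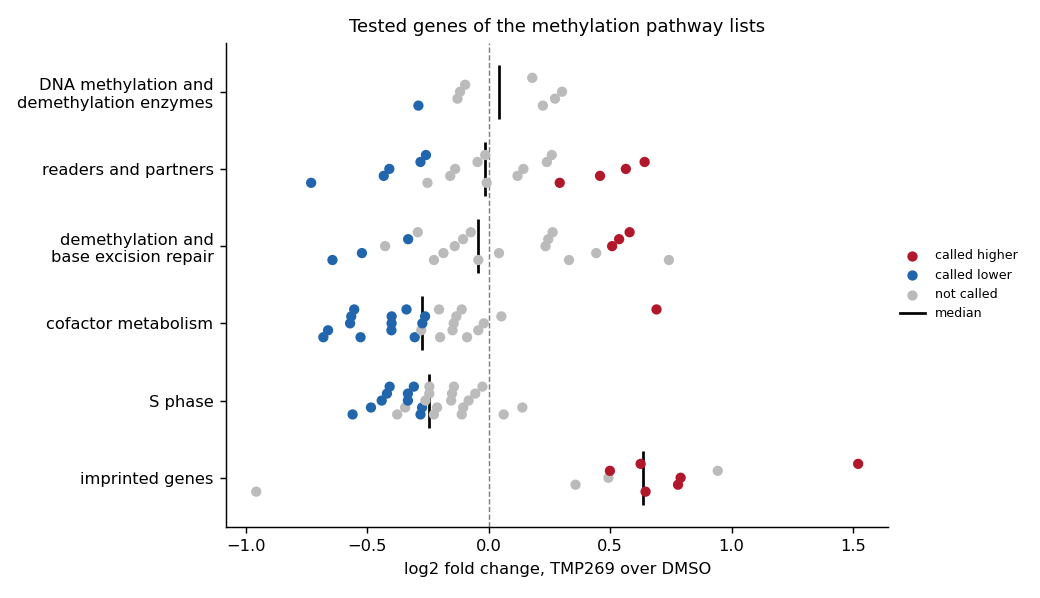
Log2 fold change of TMP269 over DMSO (x axis) for each tested gene of 6 lists (rows), coloured by the limma call, with a black line at each list's median. The enzymes centre on 0.04, cofactor and S phase genes lie mostly below 0 with medians of -0.27 and -0.24, and imprinted genes lie mostly above 0 with a median of 0.64.

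Imprinted genes, whose expression from 1 parental copy depends on methylation, are given as genes known to depend on these enzymes. Of 18 listed, 16 were in the table and 10 passed the filter, and 6 of these rose and 0 fell, against 12.8% of all tested genes called higher. A gene can pass the filter through the group in which it is high, so the 10 are not all imprinted genes of the list. Impact, a regulator of translation, had 642 and 596 normalised reads with TMP269 against 385 and 332 with DMSO (a 1.73-fold rise, limma adjusted p = 0.00232). Plagl1, a zinc finger factor, rose 1.72-fold, Igf2r, which takes up the growth factor IGF2, 1.56-fold and the long noncoding RNA gene Kcnq1ot1 1.54-fold. Kcnq1ot1 lies antisense to Kcnq1, and Igf2r also has an antisense partner, so without a stated strand setting their reads cannot be told from their partners'. H19 was low and was not called, with 7.50 normalised reads with TMP269 and 15.5 with DMSO (limma adjusted p = 0.164). The count higher was 4 to 6 with 1 library left out and 6 with equal library totals. Which parental copy was read cannot be told from gene counts, and methylation was not measured.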

How the data were processed

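RNA was poly(A)-selected, per the labels' protocols. The table deposited by the authors held a normalised signal, read counts divided by 1 size factor per library. Multiplying by that factor (0.967, 1.05, 1.11 and 0.829 for TMP269 replicates 1 and 2 and DMSO replicates 1 and 2) returned whole reads for 100% of values, within 1.69e-09 of a whole number. CASAVA 1.4, Bowtie2, TopHat2 2.1.0, HTSeq, DESeq2 and mm9 are named, without roles, per the submitters' processing notes. No source used here gives the annotation, the strand setting or the treatment of reads matching several places. Control columns named WT were matched to DMSO samples through the labels' descriptions. The chromatin immunoprecipitation libraries (HDAC4, HDAC7 and inputs) are not analysed here.

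Genes with at least 10 normalised reads in at least 2 libraries were tested with limma (version 3.58.1, R 4.3.3) after a log2(value + 1) transformation, using a mean-variance trend, no covariate, two-sided tests and Benjamini-Hochberg adjustment over all tested genes, at 0.05. The scale understates changes of low genes. The prior degrees of freedom were 6.84. Alternatives were edgeR (4.0.16), which called 3406 genes, DESeq2 (1.42.0) and limma-voom on the recovered reads, other scalings, filters and pseudocounts, no trend, the replicate number as a block and each library left out. With 1 library left out, the lone library is assumed to vary like the other pair.

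The enzymes, lists, test and rule for named genes were chosen with earlier results of these data known. The rule named the 8 enzymes, up to 4 called genes per list and direction by the smallest adjusted p, and the 3 nearest profiles of Uhrf1, Dnmt1 and Tet2. Further genes (Usp7, Ahcy, Mat2a, Pcna, H19, Gadd45g, Dnmt3l, Dnmt3aos, Cd68, Lyz2, Cd14, Emr1, Fcgr1, Tuba3a, Brdt, Dazl, Taf7l, Stk31) were named after their values were seen. A list of 20 germline genes gave 3 tested members. The labels do not say that replicates were separate animals or cultures, so the p-values reflect only how far these libraries differ, which may be technical. Some results are not reported here. Chi-square per degree of freedom of reads was 12.02 within the TMP269 pair and 22.8 within the DMSO pair, above sampling noise.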

Additional observations from a re-analysis of the deposited data

How the results depend on the processing

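The number of enzymes called higher, 0 as reported, was 1 with edgeR, limma-voom, TMM factors, a pseudocount of 10 or a filter at 50 (Dnmt3a in each), 2 with equal library totals, with or without Rn45s, or with totals without the 20 most abundant genes (Dnmt3a and Tet3), and 0 to 1 with 1 library left out. The number called lower, 1 as reported (Uhrf1), was 0 with those 3 scalings, with no filter on low values, with no mean-variance trend and without any 1 library (0 to 0). The cause was not tested. Over all genes, 1602 were called higher and 1846 lower. These were 591 and 472 with no mean-variance trend, and 1040 to 1789 higher and 966 to 1823 lower with 1 library left out. With equal library totals 1042 were lower, and 1151 with equal totals without Rn45s, a setting chosen after seeing the data. The share of calls that were higher was 46.5% as reported and 67.3% with equal totals.

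Replicate numbers are shared between the groups, but no label says that they mark a batch. Deviations of same-numbered libraries correlated at 0.371 across genes. With the replicate number as a block, 3 enzymes were called higher (Dnmt3a, Tet2 and Tet3) and 1 lower, and 3008 and 3352 of all genes. With 1 library left out, the log2 fold change of Tet1 ranged over -0.23 to 0.040 (0.040 without DMSO replicate 1) and that of Tdg over -0.13 (without DMSO replicate 2) to 0.78. Tet1 turned to 0.0064 with equal library totals. Tdg gave no value with a filter at 50, in DESeq2's adjusted p, or without replicate 1 of either group. Depth limits Tet1 and Tdg.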

Other observations

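Of the 20 germline genes that are known for methylated promoters in somatic cells, 15 were in the table and 3 passed the filter. Zcwpw1, a histone reader of meiosis, rose 1.74-fold, with 335 and 326 normalised reads with TMP269 against 198 and 181 with DMSO (limma adjusted p = 0.00356), and it stayed called in every alternative run. Tuba3a, a testis tubulin gene, had 20.4 normalised reads with TMP269 and 8.12 with DMSO and was not called (limma adjusted p = 0.0534). It passed the filter only through the TMP269 libraries, as both DMSO values lay below 10 normalised reads. Genes that pass through the group in which they are high favour a change in that direction, so the 3 do not stand for the list. Brdt, a testis bromodomain gene, was not called either. The other 12 were too low to test, among them Dazl, at 4.01 with TMP269 and 1.503 with DMSO, and Taf7l and Stk31, with 0 reads in every library.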
